A study of Mus musculus with 2 samples.

Results

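Mir130a, Mir130b, Mir301 and Mir301b are the mouse genes of the miR-130 and miR-301 family, whose main products begin with the same bases. The 4 genes were found by their Ensembl identifiers among the 1973 miRNA gene lines of each count file, and all 4 had reads in both libraries. The libraries hold short RNA, under 30 bases, from the embryonic facial prominences of B6NCrl mice at 13.5 days, the tissue that forms the jaws, palate and nose. Both are biological replicates of 1 group, labelled healthy and with no treatment or allele named, each pooled from male and female embryos, so there is no contrast between conditions. Labels do not say whether the pools came from separate litters, and p-values measure only the difference between these libraries, which may be technical.

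A miRNA is cut from a hairpin in a longer transcript and guides the silencing complex to messenger RNAs that pair with its seed, bases 2 to 8 from its 5′ end. Genes that share a seed can reach overlapping targets, whichever locus they come from. The miR-130 and miR-301 family is known for acting on growth factor signalling, and miR-130a for a part in vessel growth through homeobox genes.

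The 3p sequences of the family are shown because the seed, in capitals, is what makes these genes 1 family; they are from RefSeq on GRCm38.p6, written 5′ to 3′.
miR-130a-3p: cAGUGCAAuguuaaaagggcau
miR-130b-3p: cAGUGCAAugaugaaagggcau
miR-301a-3p: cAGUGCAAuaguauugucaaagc
For Mir301b the table gave miR-301b-5p, and miR-301b-3p is named only. The 3 printed sequences start with the same 9 bases, CAGUGCAAU, which open 7 of the 1738 mature sequences of the table (0.403%). From there miR-130a-3p and miR-130b-3p stay alike and differ by 2 substitutions, U11A and A13G, with the base of miR-130a-3p first and positions counted from its 5′ end. miR-301a-3p has another 3′ end and matches miR-130a-3p at 12 of 22 bases.

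The 5p sequences come from the other arm of each hairpin and are shown, with bases 2 to 8 in capitals, because they group the genes differently.
miR-130a-5p: gCUCUUUUcacauugugcuacu
miR-130b-5p: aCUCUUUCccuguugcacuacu
miR-301a-5p: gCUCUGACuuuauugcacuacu
miR-301b-5p: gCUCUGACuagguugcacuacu
Here miR-301a-5p and miR-301b-5p share a seed, and miR-130a-5p and miR-130b-5p each have one of their own. All 4 end in CUACU, as do 5 of the 1738 mature sequences, and the 3 other than miR-130a-5p end in UUGCACUACU. The deposited counts are per hairpin, so they do not tell the 2 arms apart.

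The genes sit at 3 loci, given here on GRCm38. Mir130a (ENSMUSG00000065484.1) lies alone on the minus strand at chr2:84741115-84741178, between genes, 990 bases from Gm19426 on the same strand. Mir130b (ENSMUSG00000065572.1, chr16:17124061-17124142) and Mir301b (ENSMUSG00000076288.1, chr16:17124400-17124496) lie 257 bases apart on the minus strand, in an intron of 2610318N02Rik. Mir301 (ENSMUSG00000065589.1), the source of miR-301a, lies on the plus strand at chr11:87113004-87113089, in an intron of Ska2, which encodes a subunit of the complex that ties chromosomes to the spindle. No other miRNA gene was annotated within 10 kb of any of the 4. The hairpins that were counted are shown for 3 of the genes, with the 3p product in capitals.
Mir130a: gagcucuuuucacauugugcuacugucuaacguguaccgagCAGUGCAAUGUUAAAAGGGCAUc
Mir130b: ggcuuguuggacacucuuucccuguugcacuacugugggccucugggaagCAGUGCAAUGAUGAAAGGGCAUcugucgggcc
Mir301: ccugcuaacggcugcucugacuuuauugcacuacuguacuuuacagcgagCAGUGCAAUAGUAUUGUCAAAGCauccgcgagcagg
The annotated Mir130a hairpin was the shortest, at 64 bases with a predicted folding energy of -22.1 kcal/mol, and that of Mir301b was the longest, at 97 bases and -39.1 kcal/mol. The hairpins of Mir130b and Mir301 had 82 and 86 bases, with energies of -30.1 and -37.0 kcal/mol.

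The counts hold uniquely placed reads on the strand of the gene, and reads with several places in the genome (30.7% and 31.0% of the reads of replicates 1 and 2) belong to no gene. Gene totals were 4562135 and 5771249 counts, and levels are CPM, counts per 1000000 of that total. A read spans a whole mature miRNA, so levels of different genes were not divided by length. Each of the 7 mature sequences occurred exactly in 1 of 1005 RefSeq hairpins. Up to 1 mismatch, miR-301a-3p occurred in the hairpin of Mir301b too, and up to 2 mismatches miR-130a-3p and miR-130b-3p occurred in each other's hairpin. How many mismatches the authors' alignment allowed is not given in the sources used here, and a transfer of reads between these genes was not tested.

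The family was abundant and was mostly Mir130a. Together the 4 genes held 4.10% of gene counts in replicate 1 (95% Wilson interval 4.08 to 4.12) and 4.39% in replicate 2 (4.37 to 4.41), or 4.24 ± 0.203% (SD, n = 2). Mir130a took 77.9 ± 2.16% of the family's counts, the Mir130b and Mir301b locus 18.1 ± 1.77% and Mir301 in Ska2 4.02 ± 0.388%. The order Mir130a, Mir130b, Mir301, Mir301b was the same in both libraries, with no overlap of libraries between any 2 of the genes. Wilson intervals cover counting error only, since reads amplified by PCR are not independent molecules.

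**Figure D1:**
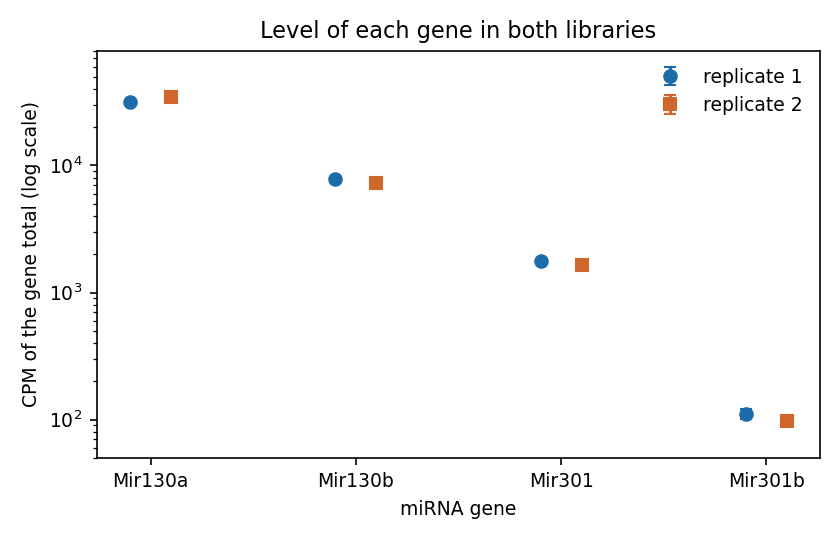
CPM of each gene (log axis) in replicate 1 (circles) and replicate 2 (squares), with 95% Wilson intervals, most of them smaller than the symbols. The genes stand apart from each other by far more than the libraries do, from about 104 CPM for Mir301b to 33083 CPM for Mir130a.

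Mir130a, alone at its locus, had 142870 counts in replicate 1 and 201121 in replicate 2. These are levels of 31316 CPM (Wilson interval 31157 to 31477) and 34849 CPM (34699 to 34999), and the 2 intervals do not overlap. It held place 8 among all genes in replicate 1 and place 9 in replicate 2. Mir100, the tested gene just above it in mean level, stood at 30815 and 36716 CPM, a range that overlaps that of Mir130a. Mir26b, just below, stood at 28027 and 30984 CPM, under both libraries of Mir130a.

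Mir130b, the second gene of the family in level, had 35708 and 42097 counts, or 7827 CPM (7747 to 7908) in replicate 1 and 7294 CPM (7225 to 7364) in replicate 2. It was at place 29 in both libraries. Its neighbours in level were Mir181c (7115 and 8433 CPM) above and Mir149 (8141 and 6735 CPM) below, and the ranges of both overlap that of Mir130b, so the order of these 3 is not settled by the replicates. Mir130b stood below Mir130a by 4.0-fold in replicate 1 and 4.78-fold in replicate 2.

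Mir301b, its neighbour on the chromosome, was the lowest of the family, with 503 and 561 counts, or 110 CPM (101 to 120) and 97.2 CPM (89.5 to 106). Unlike those of the other 3 genes, its intervals overlap between the libraries. The level is close to the median of all 360 tested genes, 113 CPM. Mir130b made up 98.6% of the counts of the pair in replicate 1 (Wilson interval 98.5 to 98.7) and 98.7% in replicate 2 (98.6 to 98.8), which is 71.0 and 75.0 Mir130b counts for each count of Mir301b. Mir301b stood between Mir152 (99.1 and 111 CPM) and Mir496a (93.2 and 109 CPM) and overlapped both.

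Mir301, in the intron of Ska2, had 8036 and 9487 counts, or 1761 CPM (1723 to 1800) and 1644 CPM (1611 to 1677), at places 79 and 82. It lay between Mir181b-2 (1526 and 1916 CPM) and Mir455 (1849 and 1550 CPM), whose ranges overlap its own. Mir301 exceeded Mir301b, in whose hairpin miR-301a-3p occurs with 1 mismatch, by 16.0-fold in replicate 1 and 16.9-fold in replicate 2.

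**Figure D2:**
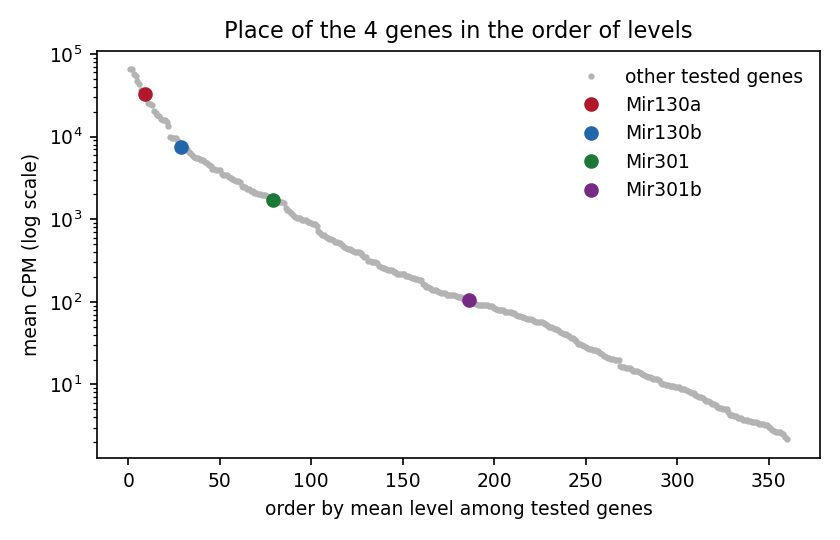
Mean CPM (log axis) of the 360 genes with at least 10 counts in both libraries, ordered from highest to lowest, with the 4 family genes in colour. Mir130a is at place 9, Mir130b at place 29, Mir301 at place 79 and Mir301b at place 186 by mean level.

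The replicates differed by at most 1.13-fold for each of the 4 genes, and Mir130a differed in the direction opposite to the other 3. After TMM scaling, Mir130a was 1.11-fold higher in replicate 2 (log2 ratio of replicate 2 to replicate 1 0.15, adjusted p = 9.37e-208, exact binomial test, Benjamini-Hochberg over 360 genes). Mir130b was 1.07-fold higher in replicate 1 (-0.10, adjusted p = 4.21e-22, exact binomial test), and so was Mir301, also by 1.07-fold (-0.10, adjusted p = 1.46e-05, exact binomial test). Mir301b was at -0.18 and did not pass (adjusted p = 0.0703, exact binomial test). In a bulk sample a smaller share of cells with a miRNA and less of it per cell cannot be told apart.

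So 3 of the 4 genes passed, beside 55.0% of all 360 tested genes (198, of which 98 were higher in replicate 1 and 100 in replicate 2). The test sets a difference between 2 libraries against counting error only, and deep genes pass at small differences. Of tested genes averaging 10000 counts or more, as Mir130a and Mir130b do, 90.7% passed (68 of 75). Between 1000 and 10000, where Mir301 lies, 71.3% passed (57 of 80), and between 100 and 1000, where Mir301b lies, 49.1% (55 of 112). The count of 3 is thus near the background and is no result about the family.

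In size the differences were small beside those of all tested genes, which take in low counts with larger ratios. The median absolute log2 ratio was 0.13 over the 4 members and 0.24 over the 360 tested genes. Within depth classes the median was 0.15 for a mean count of 10000 or more, where Mir130a (0.15) is at the middle and Mir130b (-0.10) is below it. It was 0.15 between 1000 and 10000, where Mir301 is at -0.10, and 0.24 between 100 and 1000, where Mir301b is at -0.18. A larger ratio than that of Mir130a was seen in 64.7% of tested genes, than that of Mir130b in 76.7%, than that of Mir301 in 76.9% and than that of Mir301b in 57.8%. SD over mean was 7.55% for Mir130a, 4.98% for Mir130b, 4.88% for Mir301 and 8.90% for Mir301b. The coefficient of variation beyond counting noise was 18.0% over all tested genes (edgeR's common dispersion). It is an unlike measure, a single fitted value over genes of all depths, while SD over mean includes counting noise. The depth classes above are the closer comparison.

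**Figure D3:**
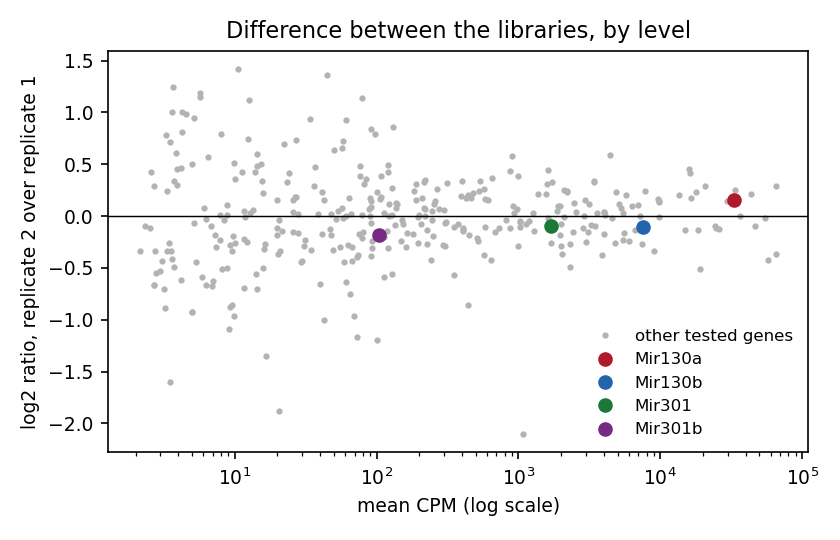
Log2 ratio of replicate 2 to replicate 1 against mean CPM (log axis) for the 360 tested genes, with the 4 family genes in colour. Mir130a lies above 0, at 0.15, and Mir130b, Mir301 and Mir301b lie below it, between -0.10 and -0.18.

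Ratios between 2 genes of the family within 1 library need no library scaling. Over the 6 pairs of genes, 3 ratios differed between the libraries by Fisher's exact test with Benjamini-Hochberg adjustment over the 6, and all 3 involve Mir130a. Its ratio to Mir130b was 1.19-fold higher in replicate 2 (95% interval by Woolf's method 1.18 to 1.21, adjusted p = 3.54e-108, Fisher's exact test). Its ratio to Mir301 was also 1.19-fold higher (1.16 to 1.23, adjusted p = 4.83e-29, Fisher's exact test), going from 17.8 to 21.2. Its ratio to Mir301b was 1.26-fold higher (1.12 to 1.42, adjusted p = 0.000324, Fisher's exact test), going from 284 to 359. Such changes are common at this depth. Over the 2775 pairs of tested genes averaging 10000 counts or more, 92.0% had an interval without 1, the median change was 1.17-fold and 44.0% changed by more than Mir130a over Mir130b. Over the 11935 pairs averaging 1000 counts or more, 80.7% had an interval without 1. Their median change was 1.17-fold, and 45.6% changed by more than Mir130a over Mir301. The ratios of Mir130a to Mir130b and to Mir301 are thus near the background. No background was computed at the depth of Mir301b, so its ratio to Mir130a was not placed.

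Among the other 3 genes, at 2 loci on different chromosomes, no ratio passed. Mir130b exceeded Mir301 by 4.44-fold in both libraries, and the change of that ratio was 0.999-fold with an interval of 0.966 to 1.03 (adjusted p = 0.940, Fisher's exact test). The interval covers counting error only. Of 11935 pairs of tested genes averaging 1000 counts or more, 80.7% had an interval without 1 and 0.503% changed by less than this pair, which was singled out after its values were seen. For the neighbours Mir130b and Mir301b the change was 1.06-fold (0.936 to 1.19, adjusted p = 0.450, Fisher's exact test), and for Mir301 over Mir301b it was 1.06-fold (0.935 to 1.20, adjusted p = 0.450, Fisher's exact test). The depth of Mir301b, 503 and 561 counts, sets the width of these last 2 intervals. The 3 passing pairs are not independent, since they share Mir130a.

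**Figure D4:**
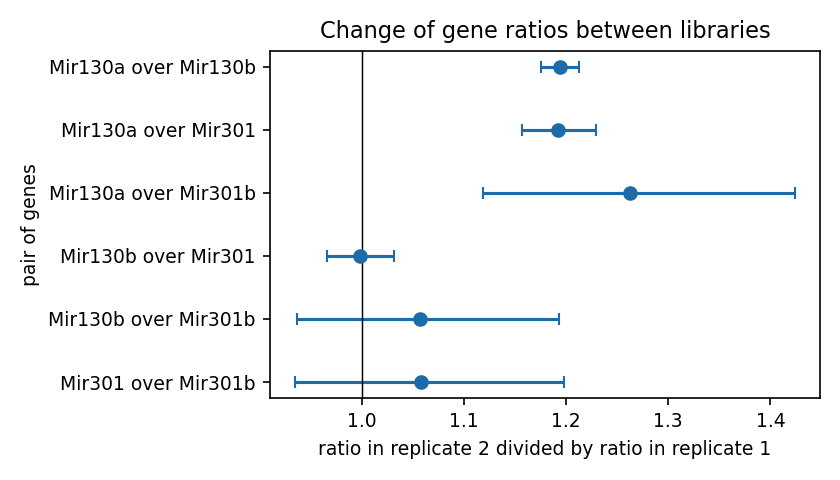
Change of the ratio between 2 family genes from replicate 1 to replicate 2 (points), with 95% intervals from the counts (bars), for the 6 pairs. The 3 pairs with Mir130a lie above 1, at 1.19, 1.19 and 1.26, and the intervals of the other 3 include 1.

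Markers of cell types in the face differed between the libraries at rates that should be read beside the 55.0% of all tested genes, and the 90.7% of those averaging 10000 counts or more, that passed the same test. The endothelial gene Mir126a (1 of 2 listed, with Mir126b not matched by name) was at 25810 and 23871 CPM, with a log2 ratio of -0.11. Summed levels of the epithelial list (7 of 7 genes measured) were 63539 and 63309 CPM, with 5 genes higher in replicate 2 and 2 in replicate 1, and of the cartilage and mesenchyme list (5 of 5) 47597 and 49893 CPM, with 4 genes of the latter higher in replicate 2 and 1 in replicate 1. Red blood cell genes (3 of 3) summed to 101 and 160 CPM, with 2 higher in replicate 2 and 1 not past the test. White blood cell genes (4 of 5, with Mir142 not matched by name) summed to 494 and 514 CPM, mostly Mir223 (383 and 363 CPM). Of the 3 white blood cell genes tested, 1 was higher in replicate 2 and 2 did not pass. The liver gene Mir122 was at 49.5 and 109 CPM. Striated muscle genes (4 of 5, with Mir1a-1 at 0) summed to 622 and 385 CPM, mostly Mir206, higher in replicate 1, while Mir208b was higher in replicate 2 and Mir133b did not pass. Neural genes (6 of 7, with Mir124a-1, Mir124a-3 and Mir9-2 at 0) summed to 324 and 309 CPM, mostly Mir137 (315 and 304 CPM). The 2 neural genes tested did not pass. Reads with several places in the genome belong to no gene, so a count of 0 in these lists does not show absence. For the same reason the sums can be understated. The part of any of these cell types in the ratios of the family was not tested.

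RefSeq gives the family seed to further mouse genes, shown to set them against the 4 measured members.
miR-130c: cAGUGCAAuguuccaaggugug
miR-6341: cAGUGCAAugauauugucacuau
miR-6389: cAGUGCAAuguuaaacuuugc
Their genes, Mir130c, Mir6341 and Mir6389, had 0 counts in both libraries, which allows up to 0.658 CPM in replicate 1 and 0.520 CPM in replicate 2 for uniquely placed reads. Mir721 also has the seed and was not matched by name in the files. The uniquely placed counts at genes with this seed, Mir721 aside, thus lay at the 4 members.

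The Mir148 and Mir152 genes are close relatives by sequence: their 3p products hold AGUGCA, the first 6 bases of the family seed, 1 base further from the 5′ end.
miR-148a-3p: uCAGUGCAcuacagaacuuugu
miR-148b-3p: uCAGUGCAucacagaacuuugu
miR-152-3p: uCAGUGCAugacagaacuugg
Mir148a, known from liver and from the DNA methyltransferase targets of its family, stood at 1448 and 1678 CPM, near Mir301. Mir148b stood at 172 and 154 CPM and Mir152 at 99.1 and 111 CPM, near Mir301b. Of the 3 genes, Mir148a was higher in replicate 2 (log2 ratio 0.21, adjusted p = 1.35e-19, exact binomial test), Mir148b higher in replicate 1 (-0.17, adjusted p = 0.0382, exact binomial test) and Mir152, at 0.16, did not pass (adjusted p = 0.111, exact binomial test). Summed, they reached 1719 and 1942 CPM, against 41015 and 43884 CPM for the 4 members. The stretch AGUGCA lies at the same place in miR-350-5p and miR-291b-3p too. Mir350 stood at 354 and 447 CPM, and Mir291b had 2 and 0 counts.

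Of 12 miRNA genes known, like Mir130a, for a part in vessel growth, 11 were measured (Mir18a and Mir92a-1 as Mir18 and Mir92-1), with a median level of 4543 CPM beside 113 CPM over all tested genes. The list was chosen with earlier results of these data known, so its higher median is no result about vessel growth. Mir17, of the proliferation-linked Mir17 cluster, led at 36420 and 36375 CPM, and was thus the only gene of the list above Mir130a in mean level. Between the libraries 4 of the 11 were higher in replicate 1, 2 were higher in replicate 2 and 5 did not pass, beside 55.0% of all tested genes past the test, with a median log2 ratio of -0.0023 beside -0.01 over all tested genes. The 4 were Mir126a, Mir296 (5200 and 4351 CPM), Mir23a (19134 and 17446 CPM) and Mir92-1 (3561 and 3330 CPM). Like Mir130a, Mir210, the miRNA of the response to low oxygen, was higher in replicate 2, at 576 and 642 CPM (log2 ratio 0.16, adjusted p = 6.03e-05, exact binomial test), and so was Mir18, at 5366 and 5472 CPM (0.03, adjusted p = 0.0444, exact binomial test).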

How the data were processed

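Short RNA was sequenced from 2 replicate libraries of 1 group. The authors deposited whole-number read counts per miRNA gene, made on mm10 with GENCODE M4 per the deposited description files; how reads were trimmed and aligned is not given in those sources. The files have no header, and column 2 was read as unstranded, since it equalled the sum of the other 2 in every gene line; column 3 was read as the strand of the gene because of its larger total (126885 and 158904 counts in column 4). Lines for read classes stayed out of totals. Names and positions came from GENCODE M21 on the same build (1894 of 1973 identifiers matched), and sequences from RefSeq (GRCm38.p6).

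Genes with at least 10 counts in both libraries were set against each other by an exact binomial test (two-sided, on the sum of both counts) with TMM scaling (edgeR 4.0.16, R 4.3.3) and Benjamini-Hochberg adjustment at 0.05 over all of them. Pairs of members were compared by a two-sided Fisher's exact test (scipy 1.17.1). Both tests were tested on simulated counts that vary by counting error only. Such counts hold no further spread between libraries, so they do not show how often unchanged genes pass in these data. Hairpins were folded with RNAfold 2.7.2. A count of 0 allows up to 3 counts. The members and lists were chosen with earlier results of these data known. Besides the 4 members, the text names genes with the seed, Mir148a, Mir148b and Mir152. It also names the tested gene just above and just below each member in level, and leading list genes. Mir296, Mir23a, Mir92-1, Mir18, Mir210, Mir206, Mir208b, Mir133b, Mir350 and Mir291b were named after their values were seen. Alternatives were unstranded counts, total counts, size factors of DESeq2 1.42.0, CPM scaled by TMM, no count minimum or 100, the total without its most abundant gene, and leaving out each library.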

Additional observations from a re-analysis of the deposited data

How the results depend on the processing

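Over 59 recomputed values, 56 kept their direction, their side of the threshold or their place within 1 SD, and the 3 exceptions are levels. Some of the 56 could not have moved. Each of 2 libraries always lies within 1 SD of their mean, so leaving out a library could not move a level or share. The unstranded share of Mir130b in its pair was fixed too, since neither gene had counts on the opposite strand. Taking the gene with the most counts over both libraries, Mir99a, out of the total raised Mir130b to 8089 CPM, Mir301 to 1822 CPM and the family's share to 4.54%, by more than 1 SD, because the total was smaller. With each library left out, the family's share was 4.10 to 4.39%, which are the values of the single libraries and add no further test. The count of members past the binomial test was 3 under DESeq2 size factors, total counts, unstranded counts, no count minimum and a minimum of 100, and the count over all tested genes was 178 to 209. The adjusted p of Mir301b (exact binomial test) was 0.0686 to 0.187 over these 5 settings. The library ratios could not be recomputed without either library, since they need both. With 2 libraries of 1 group, spread between animals and between preparations cannot be told apart, and the binomial and Fisher tests know only counting error. Depth limits mainly Mir301b, with 503 and 561 counts. The change between the libraries in the ratio of Mir130b to Mir301b is thereby uncertain from 0.936-fold to 1.19-fold.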

Other observations

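Grouped by seed, the family was among the leading seeds by uniquely placed counts. With the counts of each hairpin given to the seed of every mature sequence it holds, the family's seed had the 12th largest sum of 1398 seeds by mean level, at place 11 in replicate 1 and 12 in replicate 2. Seeds of minor arms are overstated in this ranking, since the counts do not separate arms. The seed of let-7, GAGGUAG, led at 149790 and 130033 CPM over 11 genes, and that of the Mir17 relatives, AAAGUGC, was the 4th, at 72576 and 79863 CPM over 7 genes.

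The gap between Mir130b and Mir301b was wide for genes so close together. Among 64 pairs of consecutive tested genes on 1 strand with at most 1000 bases between them, a comparison chosen after the values were seen, the median fold between the mean levels of the 2 genes was 8.62 and that of Mir130b over Mir301b was 72.9. In 8 pairs it was larger, the widest being Mir20a over Mir19b-1 at 846-fold and Mir99a over Mirlet7c-1 at 482-fold. Reads placed at several loci were not counted, and the part of such reads in these gaps was not tested. The log2 ratios between libraries of Mir130b and Mir301b differed by 0.08, beside a median of 0.23 over the 64 pairs, with a smaller difference in 15.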
